A study of Mus musculus with 6 samples.

Results

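Arachidonic acid that is set free from membrane lipids is the source of the eicosanoids, a family of short-range lipid signals. The 10 genes described here cover its release and its turnover into leukotrienes and prostanoids, together with a pair of receptors for prostaglandin E2. They were picked by name, with earlier results of these data known: Pla2g4a, Alox5, Alox5ap, Ltc4s, Ptgs1, Ptgs2, Tbxas1, Hpgds, Ptger2 and Ptger4. All 10 were found among the 21492 genes of the deposited table, and all 10 passed the filter on low values.

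The RNA-seq data compare osteoclasts (OCs), the multinucleated cells that resorb bone, from WT mice with OCs from Dcir-/- mice, which lack the inhibitory lectin receptor DCIR (gene Clec4a2). Bone marrow cells of C57BL/6J mice aged 8 to 12 weeks were first grown for 2 days in 20 ng/ml M-CSF, which gives bone marrow macrophages (BMMs), and were then turned into OCs by adding 100 ng/ml RANKL to the M-CSF. The culture methods describe 4 days with RANKL, but the sample labels describe OCs at day 4 after 2 days with it. There are 3 WT libraries, numbered 3, 82 and 94, and 3 Dcir-/- libraries, numbered 21, 22 and 83. The Dcir-/- mice had been backcrossed to this strain, and the WT mice came from a supplier and shared the rack, so an effect of genotype and one of where the mice came from cannot be told apart. No source says whether each library had its own mouse or culture, so a p-value here is set against the spread of these libraries alone, and that spread may be technical.

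In the eicosanoid pathway, cytosolic phospholipase A2 cuts arachidonic acid out of membrane phospholipids. 5-lipoxygenase, helped by its activating protein FLAP, then turns it into leukotriene A4, from which leukotriene C4 synthase makes leukotriene C4, while the cyclooxygenases turn it into prostaglandin H2, the precursor of thromboxane and of the prostaglandins. Prostaglandin E2 is known in bone as a local factor that acts on osteoblasts and on cells of the OC lineage through the receptors EP2 and EP4, which raise cyclic AMP.

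Values are given in CPM, the adjusted count of a gene relative to the mean column total, where 1 CPM equals 33.6 adjusted counts. The column totals ran from 33035020.2 to 34068308.6 after the authors' adjustment to a common size, so the depth of a library is unknown. Clec4a2 itself was at 0.496 to 1.15 CPM in the Dcir-/- libraries, against 239 to 289 CPM in the WT libraries, as the labels say. WT library 3 stood apart: 7 of the 10 eicosanoid genes had their highest value there, and 6 of the 10 had their lowest value in Dcir-/- library 21. The genotype differences of the 10 genes are therefore also given without WT library 3 where that moves them. The order of levels, the correlations, the ratios and the sums below include it. The OC markers Ctsk, Acp5, Mmp9 and 7 others were expressed in all 6 libraries and summed to 17387 to 23301 CPM. In bulk RNA, fewer cells of a type and less RNA per cell cannot be told apart.

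To place the genes, the 250 bases before the transcription start were taken from RefSeq (GRCm38.p6, which is mm10), where 9 of the 10 genes had an entry. The gene without one is Alox5ap. Stretches of 5 genes are shown: Ptgs1 and Ptgs2, whose enzymes catalyse the same reaction but differed in level and in how they varied, and Tbxas1, Hpgds and Ptger2, whose levels varied together with Ptgs1 across the libraries. The coordinates are chr2:36230176-36230425 (plus strand) for Ptgs1, chr1:150099781-150100030 (plus strand) for Ptgs2, chr6:38918736-38918985 (plus strand) for Tbxas1, chr6:65144731-65144980 (minus strand) for Hpgds and chr14:44987861-44988110 (plus strand) for Ptger2. Each is written 5′ to 3′ on the strand of its gene. Capitals mark GAGGAA, the core that factors of the ETS family such as PU.1 bind, in either orientation.
Ptgs1: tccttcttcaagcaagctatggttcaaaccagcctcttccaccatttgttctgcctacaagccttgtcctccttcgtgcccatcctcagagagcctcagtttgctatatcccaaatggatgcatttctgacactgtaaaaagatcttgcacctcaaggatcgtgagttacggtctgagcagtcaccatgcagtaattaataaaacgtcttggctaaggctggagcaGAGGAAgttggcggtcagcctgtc
Ptgs2: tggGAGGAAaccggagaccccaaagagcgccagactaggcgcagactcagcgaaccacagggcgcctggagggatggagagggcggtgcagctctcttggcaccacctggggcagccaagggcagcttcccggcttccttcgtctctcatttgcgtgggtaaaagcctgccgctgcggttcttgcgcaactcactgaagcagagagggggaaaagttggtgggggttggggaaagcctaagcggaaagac
Tbxas1: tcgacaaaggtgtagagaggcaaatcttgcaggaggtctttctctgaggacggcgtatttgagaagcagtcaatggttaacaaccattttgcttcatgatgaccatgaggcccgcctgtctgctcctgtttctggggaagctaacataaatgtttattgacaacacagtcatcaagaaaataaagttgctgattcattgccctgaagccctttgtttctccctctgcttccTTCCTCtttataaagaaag
Hpgds: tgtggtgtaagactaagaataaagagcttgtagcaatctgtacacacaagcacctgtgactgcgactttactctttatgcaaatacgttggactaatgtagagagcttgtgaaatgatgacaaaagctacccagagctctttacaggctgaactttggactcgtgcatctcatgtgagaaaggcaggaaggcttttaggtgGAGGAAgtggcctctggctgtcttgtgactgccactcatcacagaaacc
Ptger2: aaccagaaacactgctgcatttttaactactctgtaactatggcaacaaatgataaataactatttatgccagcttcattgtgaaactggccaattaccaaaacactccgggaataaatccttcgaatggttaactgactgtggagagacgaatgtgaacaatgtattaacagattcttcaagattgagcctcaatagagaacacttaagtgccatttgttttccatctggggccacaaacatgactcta
The GAGGAA core was found in 5 of the 9 genes and in 23.3% of the 32851 mouse promoters of the same length. It ended 19 bases before the start in Ptgs1, 14 bases before it in Tbxas1, where it lies on the minus strand, and 44 bases before it in Hpgds. In Alox5 it ended 131 bases and in Ptgs2 242 bases before the start, and Ptger2 had no match. The stretch of Ptgs2 held 61.6% G and C, that of Ptgs1 48.0%, and those of Tbxas1, Hpgds and Ptger2 held 43.6%, 45.2% and 38.0%, against a median of 52.4% over all promoters. The GC box GGGCGG was found in Ptgs2, Alox5 and Ptger4, 3 of the 9 genes, and in 32.7% of all promoters. The TATAAA box was found in Tbxas1 and in Pla2g4a, for which both listed starts were searched, 2 of the 9, and in 12.4% of all promoters. The C/EBP core TTNNGNAA was present in Hpgds, Pla2g4a, Ptger2 and Ptgs2, 4 of the 9, and in 36.8% of all promoters. The NFAT core TGGAAA was present in Ltc4s, Ptger2 and Ptger4, 3 of the 9, and in 18.6% of all promoters, and the AP-1 site TGANTCA in Tbxas1 alone and in 6.75% of them. The TGACG core of cyclic AMP response elements (17.8% of all promoters), the E-box CACGTG (6.02%) and the kappaB site GGGNNTTCC (4.98%) were in none of the 9. Both strands were searched, and no GAGGAA match overlapped another of these motifs. The matches describe the letters only. The RefSeq starts of Tbxas1, Hpgds and Ltc4s, and the downstream listed start of Pla2g4a, lie inside the longer gene models used for counting positions below.

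Across the genes, Alox5ap and Ltc4s of the leukotriene arm were the most abundant per length, while Alox5 of the same arm was below Hpgds and Tbxas1. Compared as CPM per kb of exon in WT OCs, the level was highest for Alox5ap at 66.9 and next for Ltc4s at 24.1, followed by Hpgds at 9.86 and Tbxas1 at 9.31. Alox5 was at 5.19, Ptgs1 at 4.09, Pla2g4a at 2.15 and Ptger4 at 2.02 CPM per kb. Ptger2 at 0.753 and Ptgs2 at 0.654 CPM per kb were the lowest. Neighbours in this order whose library ranges overlapped were Hpgds and Tbxas1, Alox5 and Ptgs1, Pla2g4a and Ptger4, and Ptger2 and Ptgs2. The steps from Alox5ap to Ltc4s, from Ltc4s to Hpgds, from Tbxas1 to Alox5, from Ptgs1 to Pla2g4a and from Ptger4 to Ptger2 had no overlap.

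In Dcir-/- OCs the order was nearly the same. Alox5ap was at 37.4 and Ltc4s at 20.9 CPM per kb, Tbxas1 at 7.12 came before Hpgds at 6.50, and Ptgs2 at 0.414 before Ptger2 at 0.356. The only neighbours with overlapping ranges were Tbxas1 and Hpgds, and Ptgs2 and Ptger2. Tbxas1 was above Hpgds in WT library 82 too, at 9.12 against 8.53 CPM per kb, and in WT library 94, at 7.95 against 6.77. Only WT library 3 had Hpgds above Tbxas1, at 14.3 against 10.9 CPM per kb. Exon lengths are the union over all transcripts of a gene, 9094 bp for Tbxas1 against 1014 bp for Ltc4s, and a gene with many long isoforms is given too low a level by this measure.

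**Figure D1:**
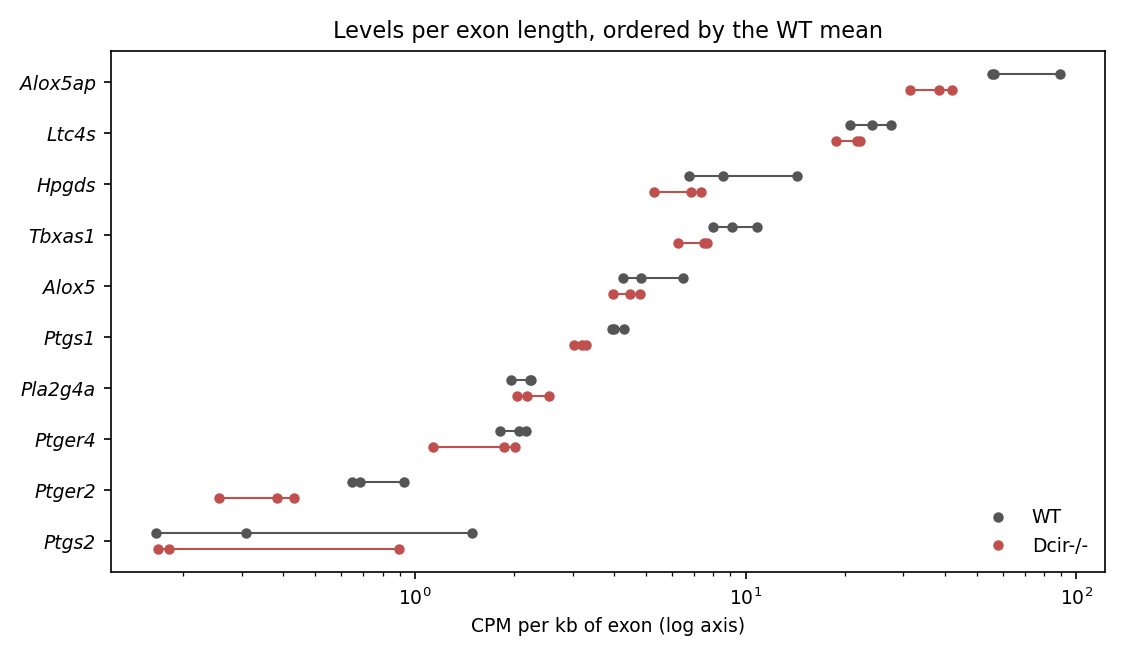
Level of each gene in CPM per kb of exon, on a log axis, with 1 point per library, a line over the range of each genotype and genes ordered by the WT mean. Alox5ap and Ltc4s sit at the top in both genotypes, and Ptger2 and Ptgs2 at the bottom.

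Between the genotypes, none of the 10 genes passed the test over all genes. With limma on log2(CPM + 1), 0 of 10 were called lower and 0 of 10 higher at an adjusted p below 0.05, where 0.292% of the 14047 genes tested were called lower and 0.149% higher. At an unadjusted p below 0.05, 4 of 10 were lower (Alox5ap, Ptger2, Ptgs1 and Tbxas1) and 0 higher, against 6.66% and 5.82% of all genes tested. The same 4 genes were those whose libraries did not overlap between the genotypes, all lower in Dcir-/- OCs, where 9.34% of all genes tested had groups apart in this direction and 10.5% in the other. In value, 9 of the 10 were lower in Dcir-/- OCs and 1, Pla2g4a, was higher. The median log2 difference, Dcir-/- minus WT, was -0.34 over the 10 genes and 0.015 over all genes tested, 46.1% of which were below 0.

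**Figure D2:**
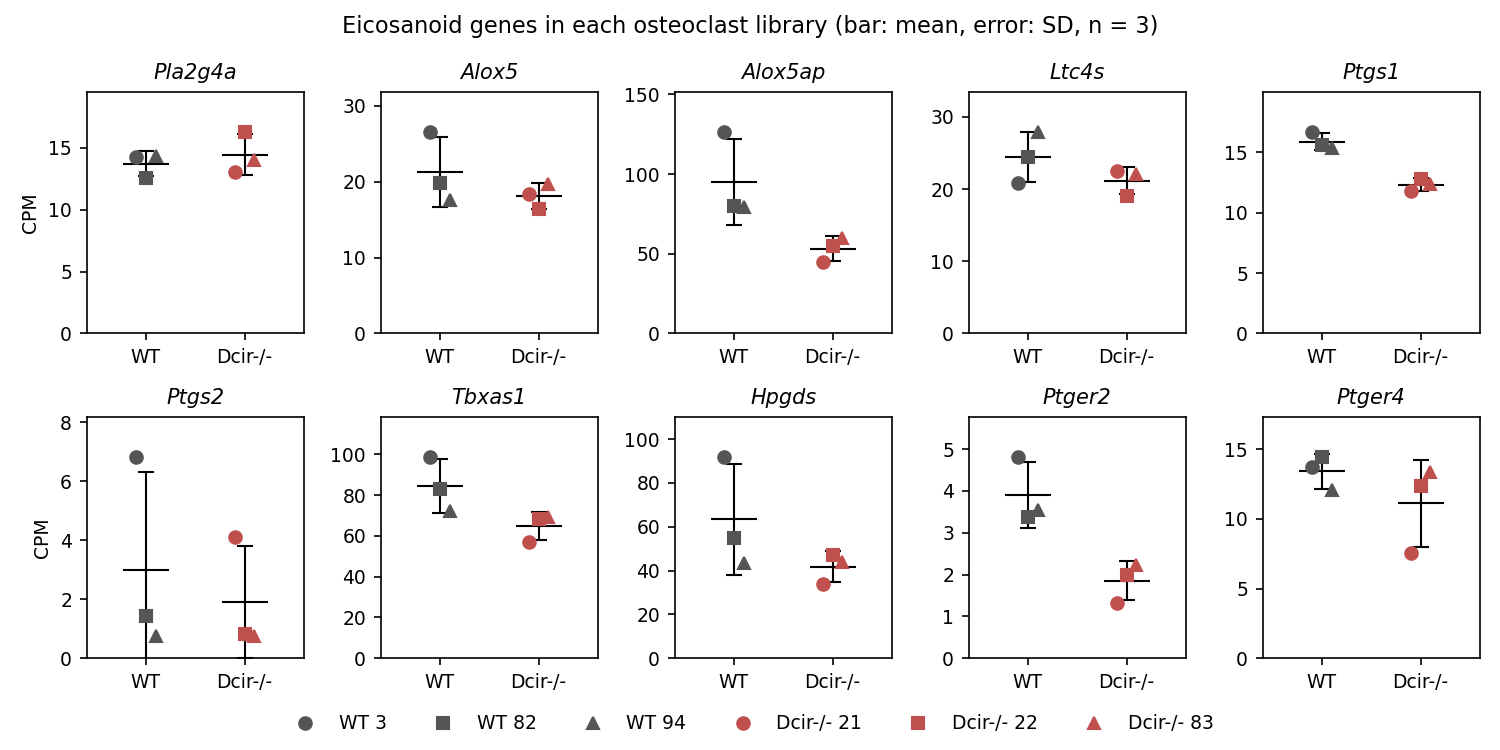
CPM of each of the 10 genes in the 3 WT and the 3 Dcir-/- libraries, each axis starting at 0, with 1 point per library, a bar at the mean and an error of 1 SD (n = 3), which for Ptgs2 reaches below the axis. Alox5ap, Ptger2, Ptgs1 and Tbxas1 show no overlap between the genotypes, and WT library 3 is the highest point for 7 genes.

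Pla2g4a, the cytosolic phospholipase that begins the pathway, did not differ detectably. It stood at 13.1, 16.3 and 14.0 CPM in Dcir-/- libraries 21, 22 and 83, against 14.3, 12.5 and 14.3 CPM in WT libraries 3, 82 and 94. The groups overlapped, with the highest and the lowest library only 1.30-fold apart, the narrowest range of the 10 genes. It differed by 0.067 on the log2 scale (SE 0.12, n = 3 per group), with a limma adjusted p of 0.870. The gene lies at chr1:149829618-149961290 (minus strand), 139 kb from Ptgs2 at chr1:150100031-150108227 (plus strand). These neighbours did not vary together, with a Pearson r of -0.28 over the 6 libraries, given as a description.

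Other enzymes that release or re-attach arachidonate did not pass the test in either direction. Of 19 listed genes, 12 were tested, 0 passed limma's test over all genes, and 4 were higher and 3 lower at an unadjusted p below 0.05, with a median log2 difference of 0.034. Pla2g15, the lysosomal phospholipase A2, was at 124 ± 3.46 CPM in Dcir-/- OCs, against 164 ± 5.94 CPM in WT OCs (SD, n = 3), a log2 difference of -0.39 (SE 0.07) with a limma adjusted p of 0.0649. Lpcat3, which puts arachidonate back into phospholipids, was on the other side, at 113 ± 3.78 against 88.7 ± 8.65 CPM (limma adjusted p = 0.171).

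In the leukotriene arm, Alox5ap had the largest difference in value and was the gene whose libraries did not overlap. Alox5ap encodes FLAP, the membrane protein that hands arachidonate to 5-lipoxygenase, and lies at chr5:149264767-149288153 (plus strand). It was at 44.7, 54.7 and 59.9 CPM in Dcir-/- libraries 21, 22 and 83, against 126, 79.8 and 79.0 CPM in WT libraries 3, 82 and 94. All Dcir-/- libraries were below all WT libraries, and the means of 53.1 ± 7.76 and 95.0 ± 27.1 CPM (SD, n = 3) put Dcir-/- OCs 44.1% lower. The log2 difference was -0.80 (SE 0.19), with a limma adjusted p of 0.149. Without WT library 3, whose value was 1.71 times the mean of the 6 libraries, the difference was smaller, at -0.58 (SE 0.11), but its adjusted p was 0.046, and this was the sole call of an eicosanoid gene under any alternative. Over the alternatives the limma adjusted p of Alox5ap ran from 0.046 to 0.590.

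Alox5, the gene of 5-lipoxygenase itself, overlapped between the genotypes. Its values were 18.3, 16.4 and 19.7 CPM in the Dcir-/- libraries, against 26.5, 19.8 and 17.6 CPM in the WT libraries. Only WT library 3 was clearly higher than the rest, and the log2 difference of -0.20 (SE 0.15, limma adjusted p = 0.647) came to -0.041 without it and to -0.33 without WT library 94. Alox5 lies at chr6:116410077-116461178 (minus strand), on the chromosome of the deleted Clec4a2 and 6.65 Mb from it. It is 218 kb from Tmem72, which was higher in Dcir-/- OCs at 11.6 against 0.0962 CPM (limma adjusted p = 9.12e-05). Of 25 tested genes within 1 Mb of Alox5, 19 were lower in value, 0 were called lower and 2 were called higher, Tmem72 and Depp1. No gene within 1 Mb of any other of the 10 was called.

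Ltc4s, which joins leukotriene A4 to glutathione and lies at chr11:50236461-50238616 (minus strand), also overlapped. It was at 22.4, 19.0 and 22.1 CPM in the Dcir-/- libraries, against 20.9, 24.5 and 27.9 CPM in the WT libraries. WT library 3, the highest for Alox5ap and Alox5, was the lowest WT library here. Its log2 difference of -0.19 (SE 0.13) had a limma adjusted p of 0.594. The difference was -0.30 without WT library 3, -0.12 without Dcir-/- library 22 and -0.096 without WT library 94.

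The balance inside the arm was set out by ratios of CPM per kb, chosen after the values were seen. Alox5ap exceeded Alox5 by 7.05, 9.65 and 8.79 times in Dcir-/- libraries 21, 22 and 83, against 13.8, 11.6 and 13.02 times in WT libraries 3, 82 and 94. These did not overlap, and an exact two-sided permutation test gave p = 0.1, the smallest that 3 against 3 libraries allow (0.25 after adjustment over the 5 ratios computed). The ratio of Ltc4s to Alox5ap overlapped, at 0.486 to 0.704 in Dcir-/- and 0.232 to 0.494 in WT libraries.

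Around the arm, 9 of 15 listed leukotriene and lipoxygenase genes were tested. None passed limma's test over all genes, and 3 were lower and 0 higher at an unadjusted p below 0.05, with a median log2 difference of -0.22. Lta4h, the hydrolase that makes leukotriene B4, was at 58.0 ± 3.50 against 67.9 ± 4.46 CPM, and Ggt5, which trims leukotriene C4 to D4, at 1.80 ± 0.219 against 3.83 ± 1.11 CPM (Dcir-/- against WT, SD, n = 3). Their limma adjusted p were 0.333 and 0.152. The most abundant of these genes by CPM, Dpep2, a dipeptidase that acts on leukotriene D4, overlapped between the genotypes, at 73.6 to 115 CPM in Dcir-/- and 79.5 to 159 CPM in WT libraries.

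In the prostanoid arm, the constitutive cyclooxygenase gene Ptgs1 differed by little but with little spread. Its values at chr2:36230426-36252272 (plus strand) were 11.8, 12.8 and 12.4 CPM in the Dcir-/- libraries, against 16.7, 15.6 and 15.4 CPM in the WT libraries. The groups were well apart, with means of 12.3 ± 0.517 and 15.9 ± 0.687 CPM (SD, n = 3), 22.3% lower in Dcir-/- OCs. The log2 difference was -0.34 (SE 0.10), with an unadjusted p of 0.00752 and an adjusted p of 0.216 from limma. It was also the steadiest of the lower genes, between -0.37 and -0.31 with each library left out in turn.

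Ptgs2, the inducible cyclooxygenase gene, had another pattern over the libraries. It was at 4.10, 0.826 and 0.766 CPM in Dcir-/- libraries 21, 22 and 83, against 6.82, 1.42 and 0.756 CPM in WT libraries 3, 82 and 94. In each genotype a single library, Dcir-/- 21 and WT 3, stood high above the other two, and the highest library exceeded the lowest 9.02-fold, the widest range of the 10 genes. The log2 difference of -0.34 (SE 0.58) had a limma adjusted p of 0.866, and it was -0.77 without WT library 94, -0.10 without Dcir-/- library 22 and -0.076 without Dcir-/- library 83. Per kb, Ptgs2 reached 0.295 of the level of Ptgs1 in Dcir-/- library 21 and 0.347 in WT library 3, but 0.0417 to 0.0773 in the other 4 libraries. The r of Ptgs1 and Ptgs2 over the 6 libraries was 0.24.

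Tbxas1 encodes thromboxane A synthase and lies at chr6:38875404-39084585 (plus strand). It was at 56.9, 68.1 and 69.3 CPM in the Dcir-/- libraries, against 98.7, 82.9 and 72.3 CPM in the WT libraries. The groups did not overlap, but WT library 94 and Dcir-/- library 83 were close. The log2 difference was -0.37 (SE 0.13), with an unadjusted p of 0.0175 and an adjusted p of 0.284 from limma, and -0.26 without WT library 3. Its 5′ end overlaps Hipk2 on the other strand by 762 bp, and the strand setting of the counting is not given in the sources used here.

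Hpgds, the hematopoietic prostaglandin D synthase at chr6:65117293-65144908 (minus strand), overlapped between the genotypes. It was at 34.0, 47.3 and 44.1 CPM in the Dcir-/- libraries, against 91.8, 54.8 and 43.5 CPM in the WT libraries. WT library 3 held far more than any other, and WT library 94 less than Dcir-/- libraries 22 and 83. The log2 difference was -0.53 (SE 0.25, limma adjusted p = 0.428), and -0.23 without WT library 3. Tbxas1 and Hpgds are on chromosome 6 like Clec4a2, but 84.0 and 58.0 Mb from it.

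The other synthases are known for the remaining prostanoids. Of 9 listed, 6 were tested, 0 passed limma's test over all genes, and 2 were lower and 0 higher at an unadjusted p below 0.05, with a median log2 difference of -0.11. Prxl2b, which makes prostaglandin F2 alpha, was at 13.4, 14.1 and 15.3 CPM in Dcir-/- libraries 21, 22 and 83, against 29.4, 21.2 and 24.3 CPM in WT libraries 3, 82 and 94. The groups did not overlap, and the log2 difference of -0.75 (SE 0.13) had a limma adjusted p of 0.061, a smaller adjusted p than that of any of the 10 genes. Ptges, the inducible prostaglandin E synthase, was at 3.80 ± 0.265 against 5.70 ± 1.31 CPM (SD, n = 3; limma adjusted p = 0.296). The abundant Ptges3, another prostaglandin E synthase that also serves as a cochaperone, stood at 115 ± 10.0 against 124 ± 18.0 CPM, with overlap.

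For prostaglandin transport and breakdown, 6 of 8 listed genes were tested, 0 passed limma's test over all genes, and 1 was lower and 0 higher at an unadjusted p below 0.05. The 1 was Ptgr1, a reductase of prostaglandins and of leukotriene B4, at 21.4 ± 3.23 against 31.9 ± 7.22 CPM (SD, n = 3; limma adjusted p = 0.261). Hpgd, which begins the breakdown of prostaglandin E2, was at 10.4 to 14.1 CPM in Dcir-/- and 12.98 to 22.3 CPM in WT libraries, with overlap. The exporter gene Abcc1, which carries leukotriene C4 out of cells, was at 396 ± 11.5 against 362 ± 48.4 CPM.

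Both prostaglandin E2 receptor genes among the 10 were lower in value, and the libraries of Ptger2 did not overlap while those of Ptger4 did. Ptger2 (EP2, chr14:44988195-45003820, plus strand) was at 1.33, 1.99 and 2.23 CPM in Dcir-/- libraries 21, 22 and 83, against 4.81, 3.36 and 3.55 CPM in WT libraries 3, 82 and 94. All Dcir-/- libraries were below all WT libraries, with means of 1.85 ± 0.468 and 3.91 ± 0.787 CPM (SD, n = 3), 52.7% lower in Dcir-/- OCs. The log2 difference was -0.79 (SE 0.18), with an unadjusted p of 0.00178 and an adjusted p of 0.131 from limma, the smallest of the 10 genes. At these low levels the pseudocount set the size, which ran from -1.05 with 0.1 CPM to -0.38 with 5 CPM. Without WT library 3 it was -0.66, with an adjusted p of 0.138.

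Ptger4 (EP4, chr15:5206661-5244187, minus strand) was at 7.57, 12.4 and 13.4 CPM in the Dcir-/- libraries, against 13.8, 14.5 and 12.04 CPM in the WT libraries. Only Dcir-/- library 21 was low, and the groups overlapped. The log2 difference of -0.28 (SE 0.19, limma adjusted p = 0.612) came to -0.052 without that library. Ttc33 overlaps Ptger4 on the other strand by 11676 bp, so reads of that stretch cannot be told apart from those of Ttc33 without strand.

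Within a library, the RNA of Ptger2 was lower in value relative to that of Ptger4 in Dcir-/- OCs, and no receptor protein was measured. The ratio of Ptger2 to Ptger4 in CPM per kb was 0.225, 0.205 and 0.214 in Dcir-/- libraries 21, 22 and 83, against 0.448, 0.298 and 0.378 in WT libraries 3, 82 and 94. The means were 0.215 ± 0.00976 and 0.375 ± 0.0749 (SD, n = 3) with no overlap, and an exact two-sided permutation test gave p = 0.1, the smallest possible (0.25 after adjustment over the 5 ratios). Like the others, this ratio was chosen after the values were seen.

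Among 13 other listed eicosanoid receptors, 7 were tested and 0 passed limma's test over all genes, and 2 were lower and 0 higher at an unadjusted p below 0.05, with a median log2 difference of -0.35. Ltb4r1, the high-affinity receptor of leukotriene B4, was at 1.91 ± 0.325 against 3.73 ± 0.785 CPM (SD, n = 3), a log2 difference of -0.69 (SE 0.16) with a limma adjusted p of 0.150. Fpr2, a receptor of formyl peptides and of lipoxin A4, was at 1.55 ± 0.334 against 2.45 ± 0.202 CPM. Cysltr1, a receptor of the cysteinyl leukotrienes, was at 7.34 to 11.7 CPM in Dcir-/- and 9.55 to 18.5 CPM in WT libraries, and Ptgir, the prostacyclin receptor, at 8.10 to 13.02 and 8.58 to 15.1 CPM, both with overlap. Ptger3, Cysltr2, Ltb4r2 and the thromboxane receptor gene Tbxa2r were below the filter.

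Below EP2 and EP4, the cyclic AMP genes centred on 0. Of 24 listed, 22 were tested, 0 passed limma's test over all genes, and 1 was higher and 2 lower at an unadjusted p below 0.05, with a median log2 difference of 0.018. Gnas, which encodes the stimulatory G protein alpha subunit, was at 487 ± 20.9 against 479 ± 19.2 CPM, and the kinase subunit gene Prkar1a at 319 ± 8.38 against 319 ± 7.71 CPM (SD, n = 3). Arrb2, an arrestin gene whose product takes receptors out of signaling, was at 106 ± 5.64 against 136 ± 11.0 CPM, with no overlap and a limma adjusted p of 0.151. The phosphodiesterase gene Pde3b was at 1.81 ± 0.153 against 3.09 ± 0.649 CPM, and Pde8a at 102 ± 3.37 against 87.2 ± 2.57 CPM (limma adjusted p of 0.211 and 0.260).

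**Figure D3:**
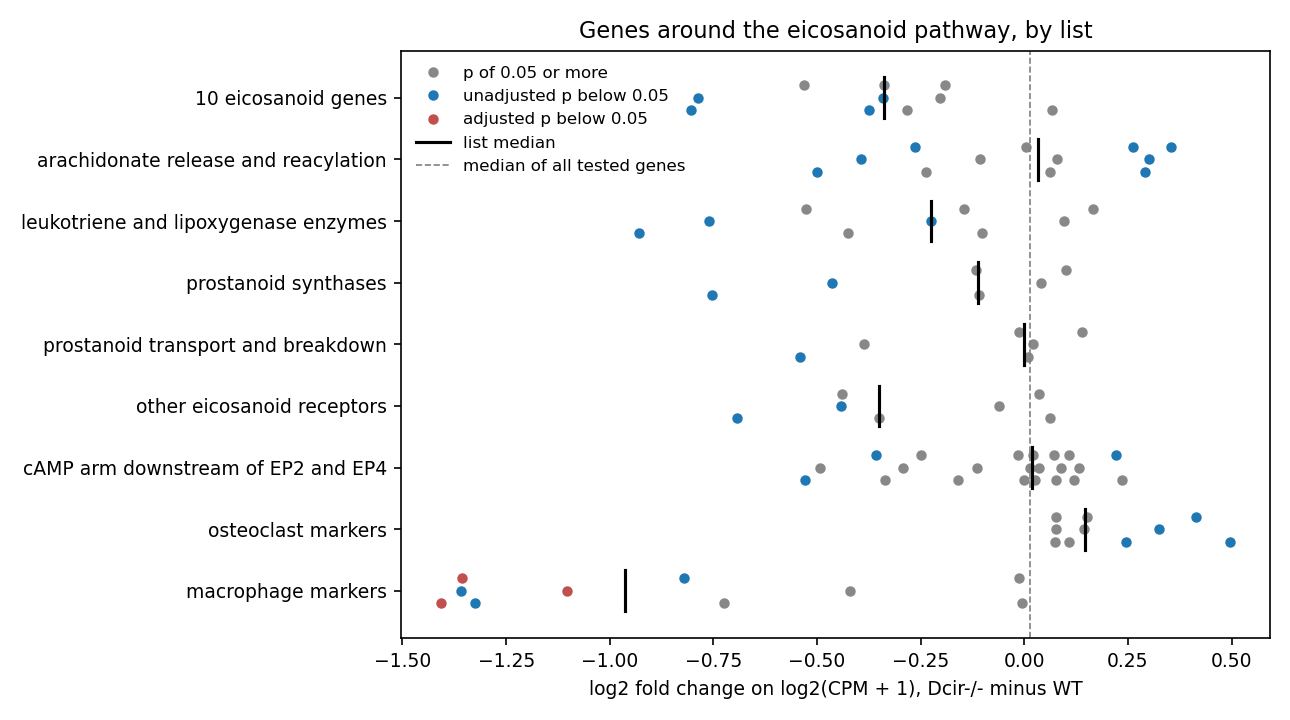
Log2 difference on log2(CPM + 1), Dcir-/- minus WT, of every tested gene in the pathway lists and in the OC and macrophage marker lists. Each gene is 1 point colored by its limma p. A bar marks the list median and a dashed line the median of all tested genes (0.015). The 10 eicosanoid genes (median -0.34) sit mostly left of the line. Of the lists shown, only macrophage markers hold genes with an adjusted p below 0.05. Monocyte, neutrophil and platelet markers, which are not shown, also hold such genes.

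A group of 5 genes, picked for their high r, varied together across the 6 libraries with both genotypes pooled. On log2(CPM + 1) the Pearson r was 0.98 for Alox5ap and Ptger2, 0.97 for Ptgs1 and Ptger2, 0.96 for Alox5ap and Tbxas1, and 0.96 for Tbxas1 and Hpgds. Among Alox5ap, Ptgs1, Tbxas1, Hpgds and Ptger2 the lowest was 0.78, for Ptgs1 and Hpgds. Ltc4s and Pla2g4a stood outside, at -0.53 with each other. These values describe 6 libraries that differ in genotype and share 1 processing, and they carry no test. Alox5ap, Ptgs1, Tbxas1 and Ptger2 are also the genes whose groups did not overlap, so the genotype difference enters their r. No r within a genotype was computed.

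The tested genes most like each of the 10, among 9693 with a mean of at least 10 CPM, were a different gene for each. Hpgds was most like Ncf1 (r = 0.999), Tbxas1 most like Nfatc2 (0.998), Alox5ap most like Ifi47 (0.997), Ptgs1 most like Hebp1 (0.997) and Ptger2 most like C1qb (0.996). Such likeness was common for them, with 372, 309, 273, 94 and 163 genes at an r of 0.95 or more. It was rarer for Ltc4s (Dmap1, 41 genes), Alox5 (Smad4, 15), Ptger4 (Trim16, 12), Ptgs2 (Arrdc3, 8) and Pla2g4a (Otud6b, 5).

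Several lists of markers of other cell types were lower in value too, but not every list or marker. All 10 macrophage markers tested were lower in value in Dcir-/- OCs, with 3 called lower by limma, a median log2 difference of -0.96 and summed levels of 4103 to 4413 against 4474 to 6070 CPM in WT libraries, the highest in WT library 3. Monocyte markers summed to 140 to 150 against 196 to 289 CPM, with 1 of 8 called lower, and neutrophil markers to 322 to 437 against 598 to 749 CPM, with 4 of 8 called lower. Megakaryocyte and platelet markers, of interest because platelets are rich in Ptgs1 and Tbxas1, summed to 25.0 to 32.8 against 48.9 to 85.1 CPM, and 1 of 5, Pf4, was called lower. Mast cell and basophil markers, of interest for Hpgds and Ltc4s, summed to 6.45 to 7.58 against 7.15 to 8.07 CPM, with 0 of 3 called and Cpa3, Mcpt8 and Ms4a2 below the filter. Of the 10 listed mast cell and basophil markers, 6 had values, and Mcpt4, Tpsb2, Cma1 and Fcer1a had none. No marker of these 5 lists in the table was at 0 in all 6 libraries. Within them, Cd68 and Csf1r differed by only -0.014 and -0.0068 on the log2 scale. Higher in value were 2 of 8 monocyte, 1 of 5 megakaryocyte and platelet, and 1 of 3 mast cell and basophil markers. Dendritic cell markers (4 tested) had 2 lower and 2 higher, with a median of 0.077. Eosinophil markers (3 tested) had 1 lower and 2 higher, with a median of 0.098. The 2 T and NK cell markers and the 1 B cell marker tested were lower in value. The 10 OC markers were all higher in value, with a median of 0.15 and 0 called by limma, 4 of them at an unadjusted p below 0.05. Their sums overlapped, at 17800 to 23301 CPM in Dcir-/- and 17387 to 19706 CPM in WT libraries, the highest in Dcir-/- library 21. The part of other cell types in the lower eicosanoid values was not tested.

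**Figure D4:**
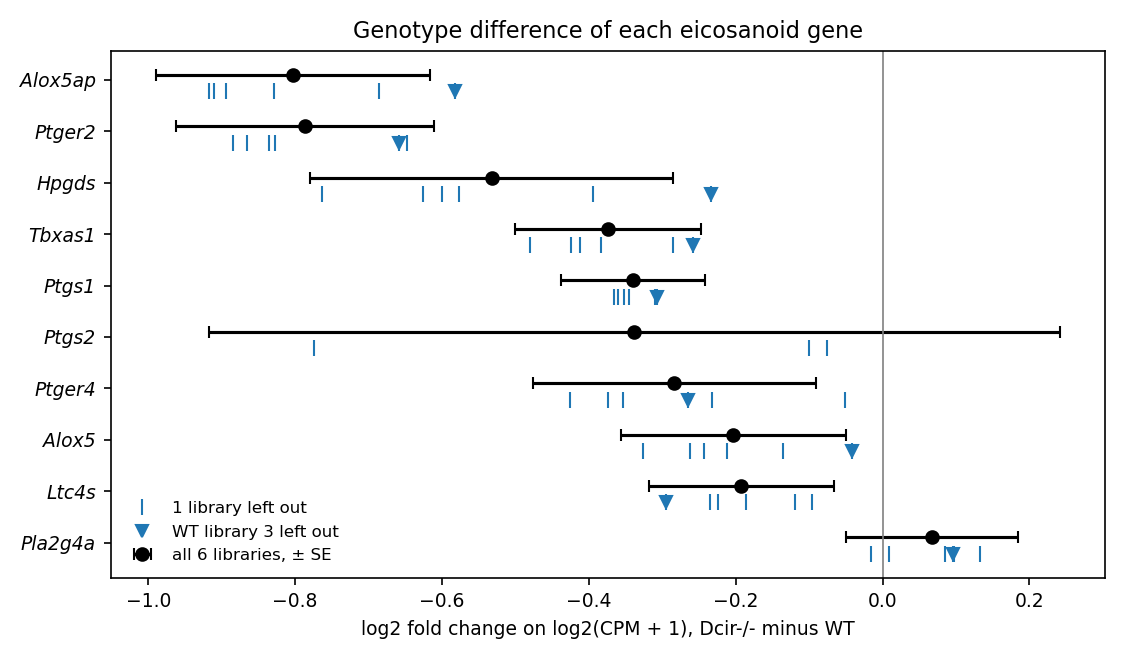
Log2 difference of each gene on log2(CPM + 1), Dcir-/- minus WT, from all 6 libraries (black point, bar of 1 SE) and with 1 library left out in turn (blue marks, with a triangle for WT library 3, and 3 marks for Ptgs2, which is below the filter without Dcir-/- 21, WT 3 or WT 82). All but Pla2g4a lie below 0, and leaving out WT library 3 moves Hpgds to -0.23 and Alox5 to -0.041.

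Summed over the 10 genes, the pathway stood at 214, 250 and 258 CPM in Dcir-/- libraries 21, 22 and 83, against 421, 309 and 286 CPM in WT libraries 3, 82 and 94. The sum, which is not divided by length, did not overlap between the genotypes, and Alox5ap, Tbxas1 and Hpgds made up most of it. Of all single genes tested, 9.34% had groups apart in this direction.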

How the data were processed

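The series holds 6 libraries of OC RNA, 3 per genotype, and all were used. Per the labels and the paper, the authors used Trim Galore 0.6.6 for trimming and HISAT2 2.2.0 for alignment to mm10, counted reads on exons with Rsubread and compared groups with edgeR; which annotation release and strand setting they chose is not given in the sources used here. The values per library are a signal that the authors deposited: counts adjusted to a common library size, of which 95.8% to 99.8% per library are not whole. Columns with the log2 fold change and the adjusted p-value of the authors' own comparison were deposited too and were not used. Columns of other samples numbered 0.

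To give CPM, each adjusted count was divided by 33577739.2, the mean total of the 6 columns. Because the values are not whole counts, the planned fallback was used: a moderated linear model (limma 3.58.1, R 4.3.3, trended prior) on log2(CPM + 1), genotype as the only term, for the 14047 of 21492 genes with at least 1 CPM in 3 libraries, with Benjamini-Hochberg adjustment over all of them and a threshold of 0.05. The fit was first tested on simulated data. Fold changes on this scale understate those of low genes. Positions and exon unions came from GENCODE M21 (GRCm38), and the 250 bases before each start from RefSeq. Dpep2 has 2 rows, of which the one with the higher mean was used. The sensitivity of low values to counting error cannot be judged without the depth.

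The 10 genes and the lists were chosen with earlier results of these data known. Named are the 10 genes, and from each pathway list genes past the test, the 3 with the smallest unadjusted p or the 3 with the highest mean CPM, with Clec4a2 as the label check; the values of 1 listed receptor gene are not reported here. Tmem72, Depp1, Hipk2, Ttc33, Pf4 and the genes below the filter were named after their values were seen. Alternatives covered the filter, pseudocount, scaling, robust and weighted fits, and each library left out.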

Additional observations from a re-analysis of the deposited data

How the results depend on the processing

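No paired analysis was possible because the groups share no library number. Over 14 or 15 alternatives each (11 for Ptgs2), 9 of the 10 genes kept their direction. Pla2g4a ran from -0.016 to 0.13 with 1 library left out and turned to -0.016 (limma adjusted p = 0.988) without Dcir-/- library 22. The 21 genes higher and 41 lower over the whole table became 8 and 15 with a minimum of 10 CPM in 3 libraries, which leaves 9732 genes and drops Ptgs2 and Ptger2. The lower count was 27 with a pseudocount of 5 CPM and 25 with library weights. With 1 library left out, from 1 to 39 genes were higher and from 1 to 87 lower, the most without WT library 3 and the fewest without Dcir-/- library 22. Without Dcir-/- library 21 the counts were 3 and 5, without Dcir-/- 83 they were 3 and 3, without WT 82 they were 6 and 3, and without WT 94 they were 20 and 59. The number of eicosanoid genes called lower was 0 to 1 with a library left out, the 1 being Alox5ap without WT library 3, and 0 otherwise. The number called higher was 0 throughout. By CPM per kb, 6 to 10 of the 10 genes held their rank with a library left out, 6 of them without Dcir-/- 83, WT 82 or WT 94. The cause of these changes was not tested. Other scalings moved the median of all genes by under 0.1 on the log2 scale and turned no gene of the 10. The unknown depth limits Ptger2 and Ptgs2 most, since both lie near the filter of 1 CPM.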
